A study of Caenorhabditis elegans with 2 samples.

Results

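The peaks described here are the UNC-55 ChIP-seq peaks that lay inside protein-coding genes but outside exons, away from annotated promoters. They were taken from the set that the authors kept by IDR, the irreproducible discovery rate, which scores how far the ranks of peaks repeat. A summit counted when it lay inside the span of a protein-coding gene, in no exon of any gene, and outside all promoter windows. Such a window reached 1000 bp upstream and 200 bp downstream of each start of a protein-coding transcript. This gave 416 intronic peaks, or 16.6% of the set (95% Wilson interval 15.2 to 18.1%), beside 1225 promoter, 679 intergenic and 191 exonic peaks, which together make up the whole set. Of the 416, 3 lay in no intron of a protein-coding transcript and are called intronic by this rule alone. If only exons of protein-coding genes had counted, 471 peaks would have qualified. The other 55 summits lay in exons of non-coding genes that sit within a protein-coding gene.

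UNC-55 is a COUP-TF type nuclear receptor, known for keeping the VD motor neurons of C. elegans from rewiring their synapses as the DD neurons do. Receptors of this family bind DNA at copies of the hexamer AGGTCA and are known mainly as repressors. Introns of worm genes can hold enhancers as well as starts of transcripts that an annotation lacks, so an intronic peak need not act on its host gene.

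Both samples were whole late embryos of strain NC1639, of mixed sex, carrying wdIs49, in which the ttr-39 promoter drives UNC-55a fused to GFP beside a dpy-20+ marker. A note in the labels gives the tag as GFP-FLAG, and the antibody is named only as unc-55, so what was pulled down is not known here. There were 2 biological replicates of 1 group and no contrast between conditions. The cells in which the fusion was bound, and whether these make UNC-55 normally, were not determined here, and the control was not analysed. Signal is the value that the authors' peak caller gave each region against the control. It is not scaled between lists, so ranks are given beside it. Replicate 1 had a list of 3577 regions and replicate 2 one of 30000, and the depth of either library is unknown.

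Windows of 100 bp on each side of the summit are printed for 9 intronic peaks on ce11, plus strand. The first 4 are the strongest peaks found in both replicates, 1 per host gene, the next 3 are the strongest intronic peaks of 2 Hox genes and of the netrin gene unc-6, and the last 2 are the strongest with the motif TGATTGAT. Peaks on 1 chromosome were not considered for printing. Capitals mark, on either strand, the repeat GAGAGA, the hexamer ACGCAG, the MEIS-type core TGACAG, the PBC and Hox site TGATTGAT and the COUP-TF core AGGTCA, which are 4 motifs more frequent at intronic summits than at their flanks and the core that the receptor family is known to bind. Other motifs tested, CAGCTG among them, are left in lower case.
Y111B2A.12, chrIII:12612589-12612789: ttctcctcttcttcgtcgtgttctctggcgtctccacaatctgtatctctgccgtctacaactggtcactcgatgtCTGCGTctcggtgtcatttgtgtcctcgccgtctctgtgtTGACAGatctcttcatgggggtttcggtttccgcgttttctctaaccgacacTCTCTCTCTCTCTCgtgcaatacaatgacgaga
pqn-41, chrIII:1923621-1923821: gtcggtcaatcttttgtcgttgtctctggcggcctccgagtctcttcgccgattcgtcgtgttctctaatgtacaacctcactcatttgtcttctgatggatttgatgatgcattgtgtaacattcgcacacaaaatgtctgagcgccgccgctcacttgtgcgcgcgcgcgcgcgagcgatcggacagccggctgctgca
fbxl-5, chrV:7746012-7746212: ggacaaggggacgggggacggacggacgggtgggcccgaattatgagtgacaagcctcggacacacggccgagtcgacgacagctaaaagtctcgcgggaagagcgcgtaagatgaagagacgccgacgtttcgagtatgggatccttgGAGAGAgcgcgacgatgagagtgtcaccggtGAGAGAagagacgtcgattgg
Y43F8B.2, chrV:19529252-19529452: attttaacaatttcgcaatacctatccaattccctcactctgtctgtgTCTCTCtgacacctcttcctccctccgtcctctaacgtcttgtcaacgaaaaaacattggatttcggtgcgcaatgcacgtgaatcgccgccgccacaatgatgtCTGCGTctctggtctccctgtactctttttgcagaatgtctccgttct
lin-39, chrIII:7531557-7531757: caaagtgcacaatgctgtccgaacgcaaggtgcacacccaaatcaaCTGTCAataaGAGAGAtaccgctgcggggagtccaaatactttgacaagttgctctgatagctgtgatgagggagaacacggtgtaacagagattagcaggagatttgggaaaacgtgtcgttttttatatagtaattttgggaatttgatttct
mab-5, chrIII:7780646-7780846: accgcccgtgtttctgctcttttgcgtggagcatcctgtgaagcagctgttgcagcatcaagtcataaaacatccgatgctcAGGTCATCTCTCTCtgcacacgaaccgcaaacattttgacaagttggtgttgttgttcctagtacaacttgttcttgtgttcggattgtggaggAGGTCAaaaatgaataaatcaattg
unc-6, chrX:6894301-6894501: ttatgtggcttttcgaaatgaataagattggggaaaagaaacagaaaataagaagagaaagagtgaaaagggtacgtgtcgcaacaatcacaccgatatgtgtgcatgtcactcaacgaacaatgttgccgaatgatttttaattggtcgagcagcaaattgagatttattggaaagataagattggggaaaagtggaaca
EEED8.2, chrII:5418007-5418207: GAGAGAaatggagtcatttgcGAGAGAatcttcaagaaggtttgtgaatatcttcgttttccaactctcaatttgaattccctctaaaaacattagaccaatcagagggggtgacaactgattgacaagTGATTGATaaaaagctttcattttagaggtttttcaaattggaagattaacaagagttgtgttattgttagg
dnj-20, chrII:9621233-9621433: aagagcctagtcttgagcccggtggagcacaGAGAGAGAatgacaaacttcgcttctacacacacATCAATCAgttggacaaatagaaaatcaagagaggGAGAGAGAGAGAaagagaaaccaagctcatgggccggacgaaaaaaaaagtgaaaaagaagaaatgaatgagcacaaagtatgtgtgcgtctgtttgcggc
These windows differ in what they hold. The Y111B2A.12 window had 5 overlapping matches to GAGAGA or its complement, in a run of alternating T and C, with 1 match each to ACGCAG and TGACAG. The pqn-41 and unc-6 windows held none of the 5 motifs. The mab-5 window was the only one of the 9 with AGGTCA, which it held at 2 places. The GC content ranged from 34.8% in EEED8.2 to 59.7% in fbxl-5.

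The strongest intronic peak lay in Y111B2A.12, at chrIII:12612516-12612865, in intron 4 of 7. It had a signal of 214.8, ranked 2 in the list of replicate 1 and 6 in that of replicate 2, and so stood high in both. The second, in intron 1 of T28F4.1, had a signal of 123.8 and ranked 14 in replicate 2, but no region of replicate 1 overlapped it. The next 2 both lay in the same 10372 bp intron of pqn-41, which encodes a glutamine-rich protein involved in death of the male linker cell. Their signals were 122.4 and 108.7, with ranks 337 and 675 in replicate 1 and 18 and 31 in replicate 2. The peak in intron 1 of fbxl-5, an F-box protein gene, had a signal of 108.6 and ranked 17 in replicate 1 and 45 in replicate 2. In intron 1 of cam-1, which encodes the Ror receptor for Wnt ligands, a peak of signal 107 ranked 28 in replicate 2 and was missing from the list of replicate 1. The other 9 of the 15 strongest had signals from 78.7 to 99.5. They lay in atgp-1, Y43F8B.2, the forkhead gene fkh-7, the ubiquilin gene ubql-1, the overlapping genes soem-1 and ndx-8, F09A5.3, Y67D8A.2, unc-119 and the RNA-binding protein gene larp-1. Of these, Y43F8B.2 and larp-1 ranked 15 and 39 in replicate 1, while atgp-1 and fkh-7 had no region there.

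Over all 416 peaks the median signal was 35.0, with quartiles of 28.1 and 46.6 and a range of 23.8 to 214.8. Promoter and intergenic peaks had medians of 33.97 and 35.4. The share above the median of the whole set, 34.4, was 51.7% for intronic peaks. This share was higher than at promoters by 4.01 percentage points (95% Newcombe interval -1.54 to 9.53) and differed from intergenic peaks by -0.60 (-6.68 to 5.47). Neither interval excluded 0. Among the strongest regions of replicate 1 taken alone, as many as the IDR set holds, the difference from promoters was -7.76 points (-13 to -2.46). Intronic regions thus stood lower than promoter regions in the list of replicate 1 alone.

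The list of replicate 2 overlapped all 416 peaks by at least 1 bp, and for 385 of them the region was among its strongest, in a list cut to the size of the IDR set. Their median rank there was 1198.5 and the worst 4391. The list of replicate 1 overlapped 134 of 416, or 32.2% (27.9 to 36.8%) and 27.6% when cut to its strongest regions in the same way. Most intronic peaks thus rested on replicate 2. The overlap with replicate 1 was 30.0% at promoters and 30.3% at intergenic peaks, and the differences of 2.25 points (-2.79 to 7.52) and 1.87 points (-3.72 to 7.59) had intervals that included 0. By signal, 45.5% of the 143 intronic peaks of the strongest tier, at 41.0 and above, were overlapped by replicate 1. In the middle and weakest tiers the shares were 25.4% of 134 and 25.2% of 139.

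**Figure D1:**
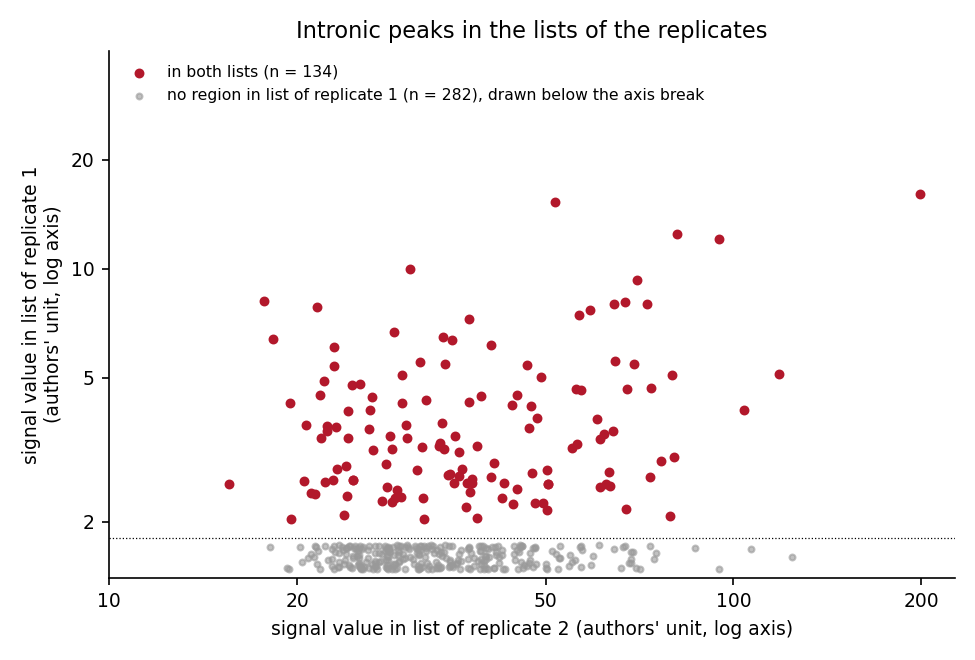
Signal of the 416 intronic peaks in the list of replicate 2 (x axis, authors' unit, log scale) against the list of replicate 1 (y axis, authors' unit, log scale). The 134 red points have a region in both lists, and the 282 grey points below the dotted line have none in replicate 1 and are spread vertically only for display. The point at the far right is Y111B2A.12.

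Intronic peaks gathered in long introns. The median length of the introns that held them, taken over summits, was 3478 bp (quartiles 1368 and 6824 bp). Over all 103609 introns of the longest transcripts, each counted equally, it was 64 bp. These medians are not alike, since summits spread evenly over intron bases would also fall mostly in longer introns. Densities per Mb allow for this. Eligible intron, meaning sequence where a summit would have met the rule, came to 26.7 Mb, with 15.6 summits per Mb (exact 95% Poisson interval 14.1 to 17.2). In introns under 500 bp the density was 4.52 per Mb (3.15 to 6.29), in those of 1000 up to 2000 bp it was 12.4 (9.57 to 15.9), and in those of 5000 bp or more 39.1 (33.01 to 45.9). The intervals of the shortest and the longest introns did not overlap.

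First introns of worm genes are often long and hold regulatory sequence. They had 23.8 summits per Mb (20.01 to 28.2) against 13.2 (11.7 to 14.8) in later introns, a ratio of 1.81 (1.47 to 2.23). Within introns of similar length this ratio was smaller. It was 0.217 (0.00534 to 1.29) under 500 bp, where first introns held 1 summit and later ones 34, and 0.772 (0.234 to 2.003) for 500 up to 1000 bp. It was 1.62 (0.858 to 2.90) for 1000 up to 2000 bp, 1.45 (0.995 to 2.08) for 2000 up to 5000 bp and 1.02 (0.726 to 1.43) for 5000 bp or more, and none of these intervals excluded 1. In the longest introns, 65 summits in first introns and 83 in later ones gave nearly equal densities of 39.5 and 38.7 per Mb. Dividing introns by length was chosen after the ratio for all lengths had been seen.

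**Figure D2:**
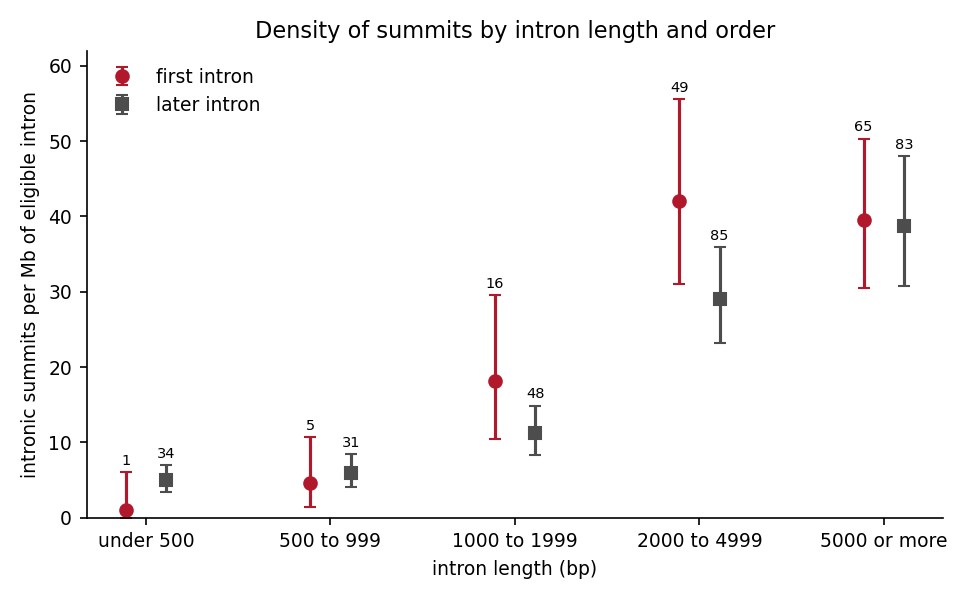
Intronic summits per Mb of eligible intron (y axis) by intron length in bp (x axis), for first introns (red circles) and later introns (grey squares). Bars are exact 95% Poisson intervals, and the number above each bar is its count of summits. Density in later introns rises with each step of length, to 38.7 per Mb at 5000 bp or more, and in first introns it rises up to 42.01 per Mb at 2000 up to 5000 bp, with 39.5 at 5000 bp or more.

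The median distance to the nearest protein-coding start was 1791 bp and the largest 14073 bp. The nearest start was upstream of the summit, in the gene's sense, for 280 peaks and downstream for 136, and it belonged to a host gene for 369 of 416. The rule itself bars more sequence upstream of a start than downstream of it. Eligible bases were not split in the same way, so these counts have no background to be read against. At the edge of the rule, 8 peaks lay within 100 bp past the downstream end of the promoter window, the nearest at 226 bp from a start, and 10 within 100 bp past its upstream end. Within the last 100 bp inside the window there were 26 promoter peaks at the downstream end and 47 at the upstream end. These promoter peaks were counted whether or not they lay in an intron, so they are not a like set to the peaks outside. Within the intron, 56.2% (51.4 to 60.9%) of the 413 summits in an intron of a transcript lay in its 5′ part, upstream of the midpoint. For later introns this was 57.5% (51.6 to 63.2%), beside 51.6% of their eligible bases, and for first introns 53.4% (44.9 to 61.6%) beside 51.3%. The X chromosome had 77 of the peaks, at 17.2 per Mb (13.6 to 21.5), against 15.3 (13.7 to 16.98) on the autosomes, so the intervals overlapped.

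Short non-coding genes are common inside worm introns. Of the 416 peaks, 77 had a summit within 300 bp of one, without lying in its exon. Around genes annotated as ncRNA there were 57 summits, or 64.2 per Mb of eligible intron (48.6 to 83.1). Around tRNA genes there were 7 (94.5 per Mb, 37.99 to 195) and around snoRNA genes 6 (136 per Mb, 50.01 to 297). Around piRNA genes there were 10, at 10.8 per Mb (5.17 to 19.8), which overlaps the density of all eligible intron. The interval for ncRNA, tRNA and snoRNA genes lay above that of all eligible intron, 14.1 to 17.2 per Mb. These densities were not compared within introns of like length. Introns of 5000 bp or more had 39.1 per Mb (33.01 to 45.9), an interval that overlaps that of tRNA genes and lies below those of ncRNA and snoRNA genes.

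The 416 summits lay in 325 of the 17317 protein-coding genes with any eligible intron, or 1.88%. Most hosts, 261, had a single summit, while 43 had 2 and 21 had 3 or more. Host genes were long, with a median of 10063 bp against 2306 bp. Among genes with under 1000 bp of eligible intron 0.151% were hosts, and among those with 10000 bp or more 25.3% were.

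The genes with the most intronic summits were lsy-22 and vab-1, with 5 each. In lsy-22, a transcriptional cofactor gene known from left and right neuron asymmetry, all 5 lay in the 11392 bp intron 1, with signals of 36.7 to 53.97, and 2 were overlapped by replicate 1. In vab-1, which encodes the worm's ephrin receptor, they lay in introns 2, 4 and 5, with signals of 24.3 to 46.2, and 1 was overlapped by replicate 1. With 4 each followed pqn-41, cam-1, zfp-1, egl-27, T28B11.1 and unc-5. In zfp-1, which encodes a chromatin protein related to AF10, replicate 1 overlapped all 4, with ranks from 79 to 3252. In cam-1 and in the netrin receptor gene unc-5 it overlapped none. For egl-27, which encodes a protein related to MTA factors of deacetylase complexes, signals were 25.7 to 53.9. The 10 are completed by Y67D8A.2 and T01G9.2 with 3 each. In rig-6, outside this ranking and named because of it, 2 of its 3 summits matched the same region of replicate 2, so neighbouring summits are not always separate sites. In all, 10 of the 416 had another of them within 300 bp and 37 within 1000 bp.

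Hosts were often bound at a promoter as well. Of the 325 hosts, 87 (26.8%, 22.2 to 31.8%) had an IDR summit in a promoter window, against 6.82% of the other 16992 genes, a difference of 19.9 percentage points (15.4 to 25.03). The difference held among genes of like eligible intron. It was 25.3 points (8.24 to 49.7) under 1000 bp, 19.5 (10.7 to 30.6) for 1000 up to 3000 bp, 17.4 (10.7 to 25.2) for 3000 up to 10000 bp and 13.5 (4.42 to 23.97) at 10000 bp or more. Every interval excluded 0. The groups by length were chosen after the first value was seen.

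The host genes were read against 25 gene lists. A list is described by its count of hosts and its density, beside 1.88% of genes and 15.5 summits per Mb for all genes, where a summit in 2 genes counts for each. Intervals below are those of the density unless given in percent, and share and density did not always stand alike to all genes. Since long introns had a higher density, the value for introns of 2000 bp or more is also given for some lists. These are lists whose density interval, over all eligible introns or over long ones, excluded the value for all genes. The value is plotted for every list that has one, beside 35.8 per Mb (31.7 to 40.2) for all genes.

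Among signalling and guidance genes, the list of axon guidance genes, which code for ligands, receptors and their cytoplasmic partners that steer growth cones, had the most hosts. There were 14 of 36 (38.9%, 24.8 to 55.1%), with 28 summits at 117 per Mb (77.5 to 169) and 173 per Mb (110 to 260) in introns of 2000 bp or more. The ligand genes were unc-6, which encodes netrin, the ephrin genes vab-2 and efn-2, and the semaphorin gene smp-1. The receptors were sax-3 (Robo), vab-1, unc-5 and ptp-3, a LAR-type phosphatase. The rest were unc-73, mig-10, madd-2, unc-14, unc-33 and lon-2. The strongest summit of unc-6 was in intron 7 of 12, with a signal of 67.3 and ranks 63 and 181 in replicates 1 and 2. In sax-3 the stronger summit had a signal of 61.4 and rank 258 in replicate 2 with no region in replicate 1. A weaker one, at 36.3, ranked 31 in replicate 1. The summit in intron 1 of vab-2 had a signal of 52.5 and ranks 1773 and 494. Of these 14 genes, 4 kept a summit overlapped by replicate 1, and the strongest regions of replicate 1 taken alone gave 8 of 36 hosts with 9 summits. With the strongest regions of replicate 2 alone there were 14 with 28. The IDR peaks above the set's median signal gave 8 with 9.

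Genes of Wnt signalling and planar polarity had 5 hosts of 30, at 95.3 per Mb (43.6 to 181) and 159 per Mb (58.5 to 347) in introns of 2000 bp or more. These were cam-1, lin-18, which encodes the Ryk receptor, the Dishevelled gene dsh-1, prkl-1 and bar-1. The dsh-1 summit, in intron 5, had a signal of 47.3 and ranks 200 and 728 in replicates 1 and 2. The TGF-beta list had 4 of 19, at 86.03 per Mb (27.9 to 200.8) and 193 (62.7 to 450.3) in such long introns, namely the Smad gene daf-14, the Ski-related gene daf-5, sma-9 and the glypican gene lon-2. The list of EGF, FGF, Ras and Notch genes had 4 of 27, at 21.4 per Mb (5.84 to 54.8), led by the MAP kinase gene mpk-1 with a signal of 56.99, sos-1 and the ETS factor gene lin-1. Of these lists, EGF, FGF, Ras and Notch had a density interval that took in the value for all genes. Its share of hosts, 14.8% (5.92 to 32.5%), lay above the 1.88% of all genes.

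Among transcription factors, the list of MEIS, PBC and Hox genes had 3 hosts of 11, at 161 per Mb (52.2 to 375) on only 5 summits, and 279 per Mb (75.9 to 714) in introns of 2000 bp or more, on 4. The hosts were the Hox genes lin-39 and mab-5 and the MEIS-type gene unc-62. The 2 summits of lin-39 lay in intron 3, with signals of 50.4 and 34.7, and ranked 634 and 786 in replicate 1 and 595 and 1144 in replicate 2. The summit of unc-62, with a signal of 44.96, ranked 502 in replicate 2, and the stronger of the 2 in mab-5, with 42.8, ranked 806, and neither gene had an overlap in replicate 1. All 3 also had a summit in a promoter window. Homeodomain genes as a whole had 6 of 98 (6.12%, 2.84 to 12.7%), at 33.5 per Mb (14.5 to 66.05), and zag-1, ceh-34 and ceh-43 were the others. Their share of hosts lay above that of all genes, while the density interval took in the value for all genes. Nuclear hormone receptor genes, the family UNC-55 belongs to, had 7 of 269, at 19.4 per Mb (8.36 to 38.1), led by nhr-3, nhr-19 and sex-1. The list of forkhead, GATA, T-box and Sox genes had 3 of 49, all forkhead genes, with fkh-7 at 87.9, daf-16 at 66.6 and unc-130 at 28.7 signal, and a density of 52.1 per Mb (19.1 to 113) that was 74.1 (24.1 to 173) in introns of 2000 bp or more, which took in the value for all genes. Of bHLH genes 2 of 39 were hosts, ahr-1 and hlh-1, which encodes the worm's MyoD. Chromatin regulators had only zfp-1 and egl-27 of 46, which together held 8 summits, at 68.7 per Mb (29.7 to 135) and 214 (78.4 to 465) in introns of 2000 bp or more. Their share of hosts, 4.35% (1.201 to 14.5%), had an interval that took in the 1.88% of all genes. The density intervals count each summit as separate, although all 8 lay in these 2 genes.

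Body wall muscle genes had 12 hosts of 44, at 50.1 per Mb (26.7 to 85.6), but 54.4 per Mb (19.97 to 118) in introns of 2000 bp or more, an interval that took in the value for all genes. They were led by the dystrophin gene dys-1, the kinase gene unc-82 and the myosin heavy chain gene myo-3, with signals of 44.6, 44.6 and 39.6. In 2 of the 12 a summit was overlapped by replicate 1, and replicate 1 alone gave 5 hosts. Cadherin and immunoglobulin adhesion genes had 9 of 50, at 41.1 per Mb (21.3 to 71.9), but 53.3 per Mb (21.4 to 109.8) in introns of 2000 bp or more, which again took in the value for all genes. Their strongest hosts were rig-6, the Fat-type cadherin gene cdh-4 and the hemicentin gene him-4. Basement membrane genes had 3 of 26, namely him-4, dgn-1 and the collagen XVIII gene cle-1.

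Genes of mature neuron function gave 3 hosts or fewer per list. Potassium channel genes had 3 of 71 (kvs-5, twk-42 and twk-13), at 7.82 per Mb (1.61 to 22.9), and 9.80 per Mb (1.19 to 35.4) in introns of 2000 bp or more, where the upper limit lay just under the 35.8 of all genes. Neurotransmitter receptor genes had 3 of 114, at 8.98 per Mb (1.85 to 26.2). These were the GABA receptor gene unc-49, with a signal of 48.9 and no region in replicate 1, the muscarinic receptor gene gar-3 and lgc-55. Synaptic transmission genes had 3 of 42 (unc-73, pkc-1 and unc-43), at 17.01 per Mb (5.52 to 39.7), and calcium, sodium leak, TRP and chloride channels 0 of 25, whose upper limit is 20.9 per Mb. Over all eligible introns, each of the 4 intervals took in 15.5 per Mb.

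Lists of the D motor neurons, in which UNC-55 is best known, had intervals that took in the density of all genes. Of 15 D neuron remodelling genes, cdk-5 alone was a host, in an intron shared with kel-3, with a signal of 33.98, rank 1071 in replicate 2 and no region in replicate 1, which gave 18.9 summits per Mb (0.479 to 105.4). Of 17 genes of GABA and cholinergic identity, unc-3, the master regulator of cholinergic motor neurons, was the host, with a signal of 33.9, rank 1515 in replicate 2 and none in replicate 1, at 19.4 per Mb (0.491 to 108.03). Summits in exons of non-coding genes do not count under the rule. One such summit lay in snf-11 of this list, with a signal of 75.6 and an overlap in replicate 1. Another lay in lin-14 of the remodelling list, with a signal of 29.1 and no overlap there. Neither construct gene with an eligible intron was a host. Heterochronic genes had 2 of 10 (lin-42 and daf-12) and tissue splicing genes 1 of 17 (asd-2, signal 64.5, ranks 759 and 264). Cuticle collagens had 1 of 125 (col-99), ribosomal protein genes 0 of 36 and chemoreceptors 0 of 1286, with an upper limit of 4.22 per Mb. In introns of 2000 bp or more the upper limit for chemoreceptors was 51.5 per Mb, which took in the value for all genes. The strongest regions of replicate 1 alone gave 13 chemoreceptor hosts.

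**Figure D3:**
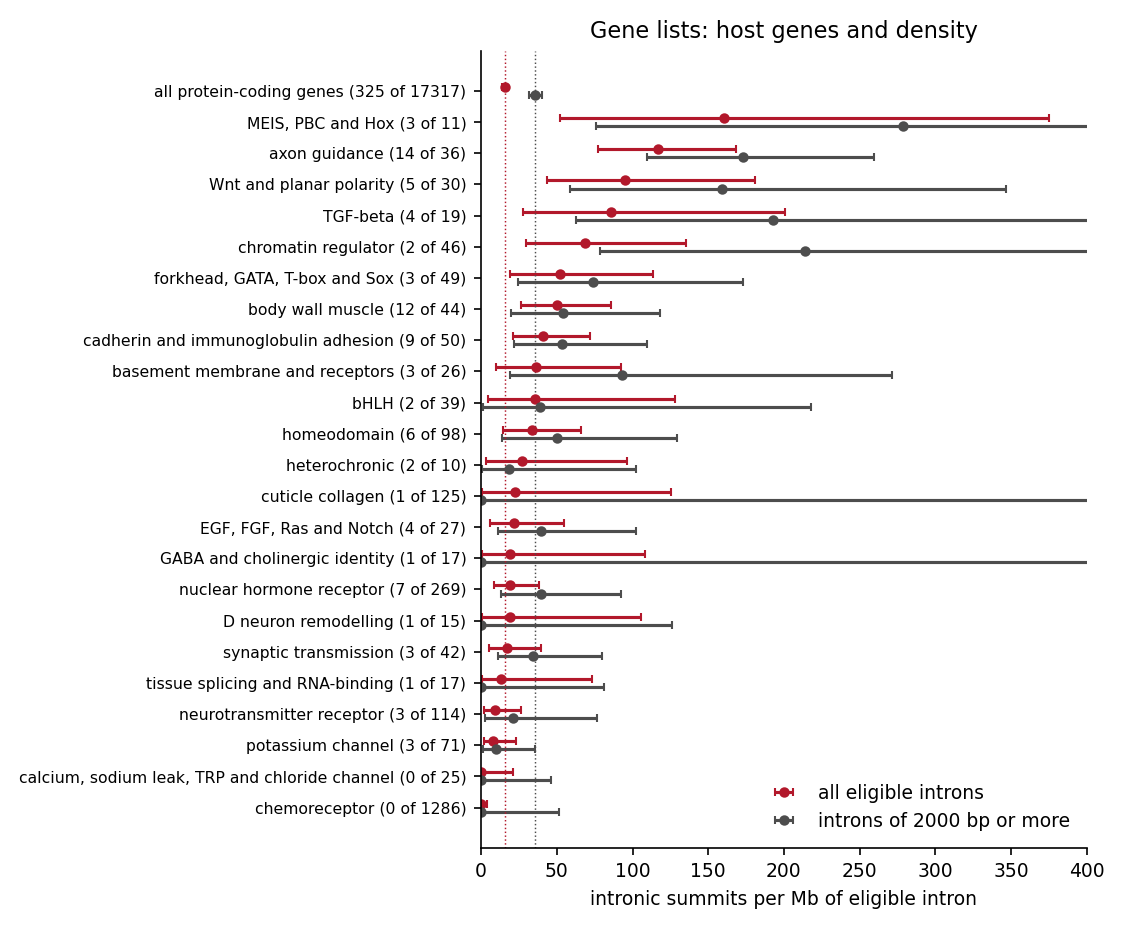
Intronic summits per Mb of eligible intron (x axis) for each gene list, over all eligible introns (red) and introns of 2000 bp or more (grey). Bars are exact 95% Poisson intervals, cut at the right edge for 5 lists in long introns, and dotted lines mark all genes at 15.5 and 35.8 per Mb. Hosts and genes with an eligible intron are given after each name, as 14 of 36 for axon guidance, and lists with under 10 kb of eligible intron are not drawn.

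The sequence at the summits was compared with a window of the same size 1000 bp away, on a side drawn at random with a fixed seed. Presence of a motif on either strand was tested two-sided with the exact McNemar test. Its p-values were adjusted over the 11 motifs by the Benjamini-Hochberg method and are called exact adjusted p below. The ratio is the number of peaks with the motif at the summit only over the number with it at the flank only. Each p describes this set of peaks and not the spread between embryos. Mean GC content was 44.3% at intronic summits and 36.8% at their flanks, and its part in the motif results was not tested.

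GAGAGA was the most frequent of the 11 at intronic summits, in 221 of 416 (53.1%) against 16.8% of flanks (ratio 5.44, exact adjusted p = 2.721e-25). ACGCAG was present in 23.8% against 3.61% (ratio 7.46, exact adjusted p = 2.586e-16). Both were known from all peaks of these data, these 416 included, when chosen. Their p-values therefore only describe these peaks and are not a test of motifs chosen beforehand. They often occurred together, as GAGAGA was in 74.7% of the 99 windows with ACGCAG and in 46.4% of the others, a difference of 28.4 points (17.5 to 37.6). A run of at least 12 bp of alternating G and A was present in 9.38% of intronic windows (6.93 to 12.6%), against 0.962% of their flanks 4.08% (3.11 to 5.34%) of promoter windows and 7.95% (6.15 to 10.2%) of intergenic ones. Windows with GAGAGA lay in introns of 2000 bp or more in 74.2% of cases and those without in 59.0% (difference 15.2 points, 6.17 to 24.0). They were overlapped by replicate 1 in 33.03% and 31.3%. Among the strongest regions of replicate 1 alone the ratio for GAGAGA was 1.72 (exact adjusted p = 0.006823) and for ACGCAG 3.36 (exact adjusted p = 0.0002991), both smaller than in the IDR set.

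The core hexamer of the COUP-TF family, AGGTCA, was in 25 of 416 windows (6.01%) and 5.77% of flanks (ratio 1.04, 0.564 to 1.94, exact adjusted p = 1). The strongest peaks with it lay in cam-1, atgp-1 and rig-6. The median signal with it was 40.2 and without it 34.8, but replicate 1 overlapped 3 of the 25 and 33.5% of the others, a difference of -21.5 points (-30.7 to -2.99). That was 1 of 6 such comparisons made after the motifs had been seen, with no adjustment. In the strongest regions of replicate 1 alone, AGGTCA was in 32 of 553 intronic windows, with a ratio of 2.38 (exact adjusted p = 0.03505). The difference between the lists was not tested. The extended form AAGGTCA was in 4 intronic windows and 11 flanks (exact adjusted p = 0.1629). Under the alternative settings its ratio ran from 0.286 to 2.33, and its lowest exact adjusted p was 0.04853.

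Motifs of TALE homeodomain factors and their Hox partners set introns apart from promoters. TGACAG, the core bound by MEIS-type factors such as UNC-62, was in 19.5% of intronic windows against 7.45% of flanks (ratio 3.27, exact adjusted p = 8.289e-07). At promoters it was in 11.8%, which was 7.72 points lower (3.71 to 12.1). TGATTGAT, a site for PBC factors with Hox proteins, was in 7.69% against 2.404% of flanks (ratio 3.44, exact adjusted p = 0.001869), and in 2.37% of promoter windows, 5.32 points lower (2.91 to 8.37). Intergenic peaks had 18.3% and 5.89%, and neither difference from introns had an interval that excluded 0. Windows with TGATTGAT had a median signal of 39.9 against 34.5 without, and 10 of 32 were overlapped by replicate 1. In the strongest regions of replicate 1 alone the ratios fell to 1.30 (exact adjusted p = 0.3949) and 1.18 (exact adjusted p = 0.8392), and the difference from promoters was -1.09 points for TGACAG. In the strongest regions of replicate 2 alone they were 3.33 and 4.12. Among IDR peaks overlapped by both replicates the difference from promoters for TGACAG was 6.73 points (-0.47 to 15.01).

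The E box CAGCTG, bound by bHLH factors, was in 9.38% against 4.57% of flanks (ratio 2.25, exact adjusted p = 0.01428). That call was lost in the strongest regions of replicate 1 alone (ratio 1.28, exact adjusted p = 0.6511), in the peaks above the median signal (2.50, exact adjusted p = 0.1231) and in those overlapped by both replicates (2.00, exact adjusted p = 0.4742). TTATCA, a site of the GATA factors, was less frequent at summits, in 12.3% against 19.5% (ratio 0.565, exact adjusted p = 0.01105). It missed the threshold with flanks 2000 bp away (ratio 0.880, exact adjusted p = 0.7167), in windows of 50 bp each side (0.684, exact adjusted p = 0.3092), in replicate 1 alone (0.741, exact adjusted p = 0.2309) and in the peaks above the median signal (0.541, exact adjusted p = 0.07292). TAATCC, the core site of the GABA neuron factor UNC-30, was in 4.09% against 7.45% (exact adjusted p = 0.07663), TAATTA in 5.77% against 8.41% (exact adjusted p = 0.2259), and TTTCGC in 9.38% against 12.02% (exact adjusted p = 0.2797). Under the alternative settings TAATCC and TAATTA passed the threshold at least in part, with a lowest exact adjusted p of 0.01724 and 0.004901. For TTTCGC the lowest was 0.182. Compared with promoters, TTTCGC differed at introns by -9.24 points (-12.6 to -5.43) and ACGCAG by -6.08 (-10.7 to -1.09). For none of the 11 did the interval of the difference from intergenic peaks exclude 0.

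**Figure D4:**
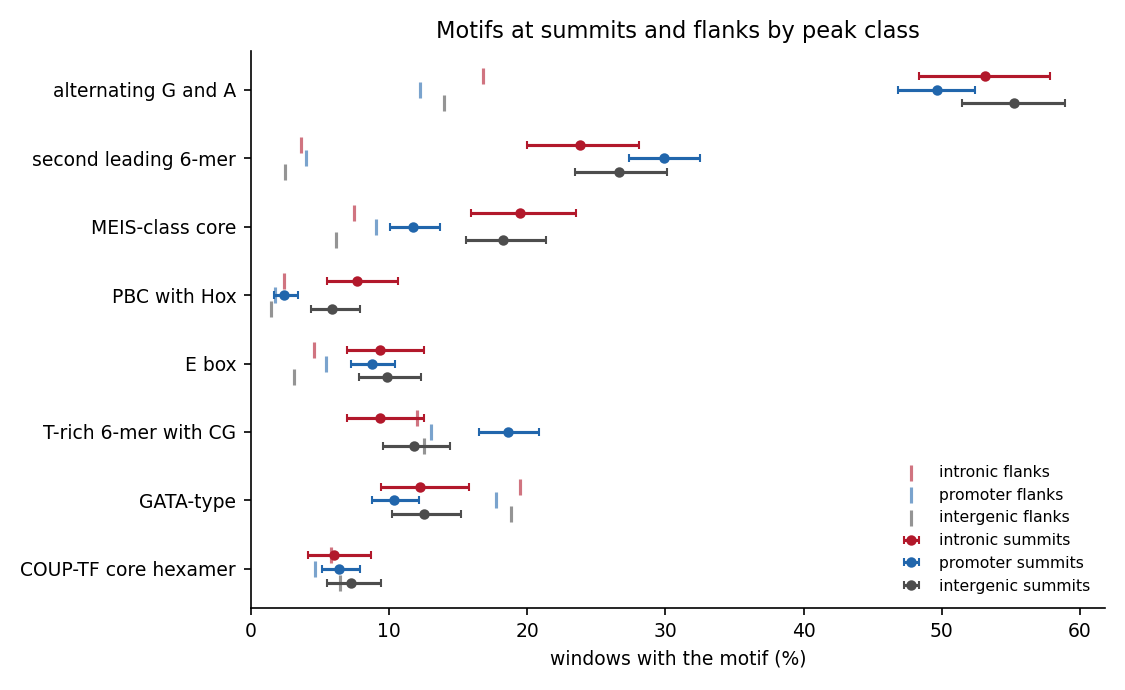
Share of windows with a motif (x axis, percent) at summits (points with 95% Wilson intervals) and at flanks 1000 bp away (ticks) for intronic, promoter and intergenic peaks. The MEIS-class core and the PBC with Hox site stand higher at introns (19.5% and 7.69%) than at promoters (11.8% and 2.37%), and the COUP-TF core hexamer does not stand out from its flanks.

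Of all pairs of a 6-mer and its complement, 189 (9.09%) were more frequent at intronic summits than at flanks and 162 (7.79%) less, by the same test with adjustment over all pairs. GAGAGA led, followed by AGAGAG at 48.6% against 15.1% and CGTCTC at 32.2% against 6.01%. Those less frequent were led by AAAAAA, at 23.6% against 63.2%. The GC content was 44.3% ± 5.48 (SD, n = 416) at summits and 36.8% ± 7.09 at flanks, higher at the summit for 330 of 416. Of the 189 pairs, 151 had 3 or more G or C letters, as did 11 of the 162 and 1360 of all pairs. The part of GC content in these counts was not tested. In the strongest regions of replicate 1 alone 4 pairs were more frequent and 0 less by the same exact McNemar test (73 and 49 at an unadjusted p under 0.05), and in those of replicate 2 alone 181 and 159.

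**Figure D5:**
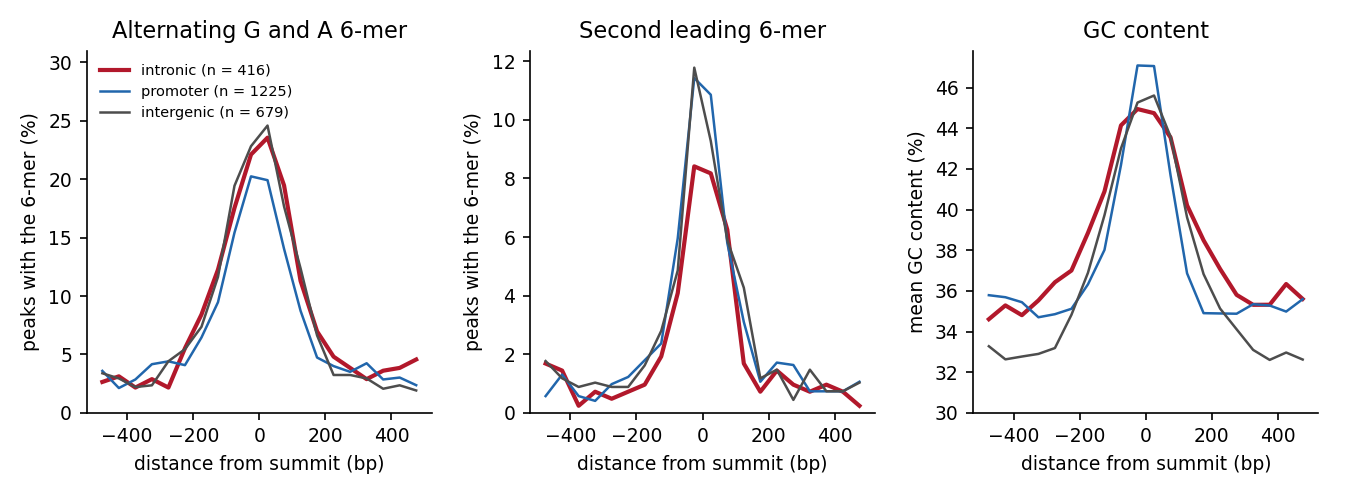
Share of peaks with GAGAGA (left) and ACGCAG (middle) on either strand, and mean GC content (right), in bins of 50 bp (y axes in percent) by distance from the summit in bp (x axis), for intronic, promoter and intergenic peaks. At introns the 3 measures peak in the bins next to the summit. GAGAGA is highest just right of it, at 23.6%, and ACGCAG and GC content just left of it, at 8.41% and 44.9%.

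A longer word joined the leading 6-mers. The 11-base AGAGACGCAGA or its complement was in 33 intronic windows (7.93%) against 0.481% of flanks, in 9.47% of promoter and 11.0% of intergenic windows, and at 2088 places on the chromosomes. It was looked for after the sequences had been seen, as the most shared word of that length that is not a short repeat. Few intronic peaks were copies of each other, since 6 shared such a word of 20 bases with another more than 1000 bp away, as did 6 of the flanks.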

How the data were processed

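Peak lists of UNC-55 ChIP-seq from 2 biological replicates of whole late embryos were analysed, on ce11. Per the file descriptions, the authors called regions in each replicate and in the pooled alignments against a control, then kept an optimal set by IDR. For caller, aligner and versions, nothing is given in the sources used here. The signal of each region and its summit offset, a position in bp, are values the authors deposited. The −log10 q-value the authors deposited was 1 value for every peak of the IDR set and was not used to rank. The lists in ce10 were not used, and 0 columns were of an unknown sample. Since the set holds few regions of replicate 1's list, most values rest on replicate 2, and with no read counts the intervals cover counting error only.

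Summits were placed on Ensembl release 115 (WBcel235) and sequences read from the RefSeq genome of the same build. Intron numbers are those of the host gene's longest protein-coding transcript that has the summit in an intron. Shares have 95% Wilson intervals, differences of shares Newcombe intervals, densities exact Poisson intervals and motif ratios an exact McNemar test. Positions are 1-based. Python 3.11.15, NumPy 2.4.6, SciPy 1.17.1 and matplotlib 3.10.9 were used. The 6-mer test was checked on simulated data. Into 25% of the 416 flanking windows of intronic peaks 10 6-mers were planted, and 10 were recovered among all pairs. With nothing planted, the exact McNemar test called 0 pairs at an adjusted p under 0.05 and 55 at an unadjusted p under 0.05. No difference in GC content was simulated.

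The peaks, gene lists and motifs were chosen with earlier results of these data known. Genes named were the hosts of the 15 strongest intronic peaks, the 10 genes with the most intronic summits, the 3 strongest hosts of each list, and hosting members of the lists on D neuron remodelling, GABA and cholinergic identity and the construct. Further hosts are named where a list's count is small or a result concerns them, after their values were seen. No gene named nca-1, of 1 list, was matched. Alternatives were other peak sets, overlaps, promoter windows, flanks, window sizes, exon and intron definitions and gene backgrounds.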

Additional observations from a re-analysis of the deposited data

How the results depend on the processing

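Of 126 values of the main comparisons under alternatives, 102 kept their direction and their side of the threshold or stayed near the main value. Without replicate 1 or replicate 2 in turn, the intronic share of peaks was 16.5 to 22.1%, genes with an intronic summit 1.854 to 2.86%, the share above the median minus that of promoters -7.76 to 3.26 points and minus that of intergenic peaks -7.76 to -0.046 points. The ratio for AGGTCA was 1.095 to 2.38, and of all 6-mer pairs 0.192 to 8.70% were more frequent at summits and 0 to 7.64% less. The intronic share was 18.8% with promoter windows of 500 bp upstream to 100 bp downstream, 12.2% with 2000 and 500 bp, and 18.8% with exons of protein-coding genes only, a setting that made hosts 2.10% of genes. The overlap by replicate 1 was 40% for the stronger IDR peaks (signal above the set's median), 25.5% when 50% of the peak had to be shared and 27.6% with only its strongest regions, as many as the IDR set holds. Hosts were 1.01% of genes with the stronger peaks, 0.676% with peaks overlapped by both replicates and 4.62% among genes with at least 1000 eligible bp. Pairs more and less frequent made up 3.75 and 3.94% with the stronger peaks, 1.88 and 2.07% with peaks overlapped by both replicates, and 4.95 and 4.66% in windows of 50 bp each side. With flanks that were also intronic, 4.95% were less frequent. Fewer peaks entered the tests with the stronger peaks and with peaks in both replicates, and the cause of the other changes was not tested.

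Of 494 values for lists, other motifs and motif differences, 422 stayed on the same side of the threshold or near the main value, 14 lost significance, 8 gained it, 48 counts moved and 2 changed sign where an interval on either side excluded 0. Other changes of direction missed the threshold before and after. Those 2 were the differences from promoters in the strongest regions of replicate 1 alone, where leaving out each replicate gave -5.56 to 1.52 points for GAGAGA and -1.09 to 8.25 for TGACAG. Alternatives for lists and motif differences were added after seeing the data. No paired analysis was possible because both replicates belong to 1 group. With replicate 2 left out, the overlap by replicate 1 is complete by construction and has no value. The missing depth limits all comparisons with replicate 1.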

Other observations

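The 55 summits inside a protein-coding gene but in an exon of a non-coding gene had a median signal of 35.1, and replicate 1 overlapped 17 of them. For 46 of the summits, the exon belonged only to genes that the annotation calls ncRNA. The 2 strongest were in let-526 (signal 80.3, within the antisense RNA F48C1.15) and in snf-11, the GABA transporter gene (75.6). Others among the 10 strongest lay in ptp-3, let-2, zag-1 and lin-42, with signals of 65.5, 62.9, 62.1 and 61.7. These genes are named after their values were seen.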
